A study of Mus musculus with 14 samples.

Results

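The coculture response of mast cells labelled Pla2g3–/– was described from 7 of the 14 arrays of the series, namely 4 arrays of bone marrow-derived mast cells (BMMCs) and 3 arrays of such cells after coculture with fibroblasts. They were chosen by their titles alone, and each of the 16012 genes measured was compared between both groups. All cells came from mice of the strain C57BL/6.129Sv-N3. Bone marrow was grown with interleukin 3 for 4 to 6 weeks, which gave cells that were over 97% positive for Kit and FcεRIα according to the labels. The cocultured cells were then kept for 4 days on a monolayer of Swiss 3T3 cells, an established mouse fibroblast line, in medium with 100 ng/ml stem cell factor (SCF). They were separated from the monolayer by trypsin and reseeding, and the labels put their purity above 99%. Fibroblasts and SCF were present together in every coculture and in no BMMC culture, so their effects cannot be told apart. The other 7 arrays held wild-type cells, 3 before and 4 after the same coculture, and served for comparison. The labels do not say whether arrays of a group came from separate mice or cultures, so p-values reflect only how these samples vary, and that variation may be technical.

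BMMCs resemble immature mucosal mast cells, and contact with fibroblasts in the presence of SCF is a classical way to push them towards the connective tissue type. That type is known for histamine, heparin and granules full of proteases such as tryptases and chymases, and for a stronger prostaglandin D2 response. Pla2g3 encodes a secreted phospholipase A2, an enzyme that frees fatty acids from phospholipids and so feeds prostanoid and leukotriene synthesis.

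Each value below is a level, the log2 signal of a gene's probe minus the 75th percentile of its array, and each change is the difference of 2 group means on that scale, with its standard error (SE). Probes well above background made up 42.6% to 55.9% of each array, and precision is limited by how few arrays there are. Levels of the knockout BMMC arrays correlated with each other at r = 0.938 to 0.977, and those of the knockout cocultured arrays at 0.914 to 0.981. BMMC array 3 had the lowest share of probes above background.

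The 3 cocultured arrays were not alike, which touches every result. Along the second principal component of all 14 arrays, which held 18.1% of the variance, cocultured arrays 1 and 2 lay at -79.1 and -76.8. Cocultured array 3 lay at 26.1, on the side of wild-type cocultured arrays 1, 2 and 4 (23.5, 66.6 and 56.7), while wild-type cocultured array 3 lay at -90.7. Along this component 1 cocultured array of each genotype thus lay with those labelled as the other genotype, and all arrays were used as labelled. Both of these arrays, and BMMC array 4, were on a slide with a later scan date than the other 3 slides. Genes of the sex chromosomes differed too. Xist, expressed from the inactive X chromosome, read 5.38 and 5.66 on cocultured arrays 1 and 2 and 1.15 on array 3. Eif2s3y, a Y-linked gene, read -5.57, -6.30 and 2.82 on the same arrays. BMMC arrays 1, 3 and 4 had Xist at 5.60 to 5.95 and Eif2s3y at -4.19 or lower, and BMMC array 2 had Xist at -5.26 and Eif2s3y at 3.06. Wild-type cocultured array 3 had Xist at -0.84 and Eif2s3y at 3.30, and the other wild-type cocultured arrays had Xist at 1.48 to 3.41 and Eif2s3y at 2.56 to 2.96. In these genes knockout cocultured array 3 thus lay with the wild-type cocultured arrays, whereas wild-type cocultured array 3 did not lie with knockout cocultured arrays 1 and 2. The part of these differences in the coculture result was not tested, and results are therefore given with and without cocultured array 3.

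The probe for Pla2g3 itself (chr11:3393221-3393280, mm9) read -1.43, -1.31, -1.60 and -1.96 on the knockout BMMC arrays and -3.21, -1.78 and -1.97 after coculture. The wild-type BMMC arrays read lower, at -3.75, -4.69 and -2.95, and the probe was well above background on 1 of those 3. The labels do not state which part of the gene was deleted, so the probe does not check the genotype, and "knockout" means the arrays labelled so throughout. The change with coculture in knockout cells was -0.74 (SE 0.54, limma adjusted p = 0.392), and its groups overlapped.

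In total, 2286 of 16012 genes changed with coculture at an adjusted p under 0.05, that is 14.3% of all genes tested. Of them 1246 rose (7.78%) and 1040 fell (6.50%), and 1934 changed at least 2-fold. The groups did not overlap for 4500 genes, or 28.1% of all tested. Leaving out cocultured array 3 gave 3143 genes (19.6%), of which 1970 rose (12.3%) and 1173 fell (7.33%). Without cocultured array 1 the count was 1069, and without BMMC arrays 1, 2 or 3 it was 1330, 1328 or 1523. Rises then numbered 534, 716, 735 and 813, in that order, so smaller counts by list in such settings go along with fewer calls among all genes. The median change of all genes was 0.07, or 0.13 without cocultured array 3.

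Of the 10 largest rises, taken among genes above background on all 3 cocultured arrays, 9 were in genes below background on every BMMC array, and the other was in the tryptase gene Tpsab1. Serpinh1, which encodes a collagen chaperone (chr7:106493971-106494030, mm9), read -6.49, -6.39, -4.80 and -6.69 before coculture, below background on every array, and 2.74, 3.55 and 2.96 after it. Because a level below background is only a bound, the rise was at least 134-fold (adjusted p = 2.09e-06). Such bounds compare the mean after coculture with the dimmest probe that each BMMC array still called well above background, or with the gene's own signal where that was higher. A gene above background on only some arrays of the dimmer group has no such bound, and its change is not an exact size. Ptx3, which encodes a soluble pattern recognition molecule, rose at least 62.6-fold from below background to 1.17, 2.13 and 2.66 (adjusted p = 1.33e-05). The neutrophil-attracting chemokine gene Cxcl1 rose at least 63.2-fold, to 1.23, 2.20 and 2.57, and the basement membrane gene Nid1 at least 54.3-fold, to 1.12, 2.05 and 2.17. Steap1, a metalloreductase gene, rose at least 58.1-fold and read lowest on cocultured array 3 (2.26, 2.85 and 0.51).

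The 10 largest falls, taken among genes above background on all 4 BMMC arrays, included 4 genes that were below background on every cocultured array and 3 that stayed above it on all 3. The T-cell receptor gamma segment Trgv4 (chr13:19308482-19308541, mm9) read 2.02, 2.63, 1.16 and 2.57 in BMMCs and below background on all 3 cocultured arrays (-5.04, -5.93 and -6.32). It fell at least 72.3-fold (adjusted p = 2.65e-07). Timp3, an inhibitor of matrix metalloproteinases, was at 1.76, 1.90, 1.54 and 2.28 in BMMCs and fell at least 61.8-fold to below background on all 3 arrays. Pigz, which acts in the synthesis of glycosylphosphatidylinositol anchors, fell by 6.66 (SE 0.51) from 4.83, 5.26, 4.06 and 4.89 to -0.92, -1.48 and -3.31. Probes for immunoglobulin heavy chain segments fell too, with Igh by 6.85, Ighv1-54 by 6.55 and Ighv1-12 by 6.33. Igh read -0.12, -0.94 and -4.15 after coculture and, like Ighv1-12 and Pigz, was above background on all 3 arrays. These segments are near-identical to their neighbours, as are Cyp4a12a, which fell by 5.73, and Cyp4a12b, which fell at least 58.7-fold, so signal of 1 member cannot be assigned with certainty. The cell adhesion gene Pkp1 fell by 5.66, and Mgarp, which encodes a mitochondrial protein, at least 28.3-fold, although the call for Mgarp ended with the authors' normalized values. On each array 59% to 59.8% of those values were below 0, and all below 1 were set to 1. A gene under this floor in both groups could not be called, so calls lost with these values can follow from the floor alone.

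**Figure D1:**
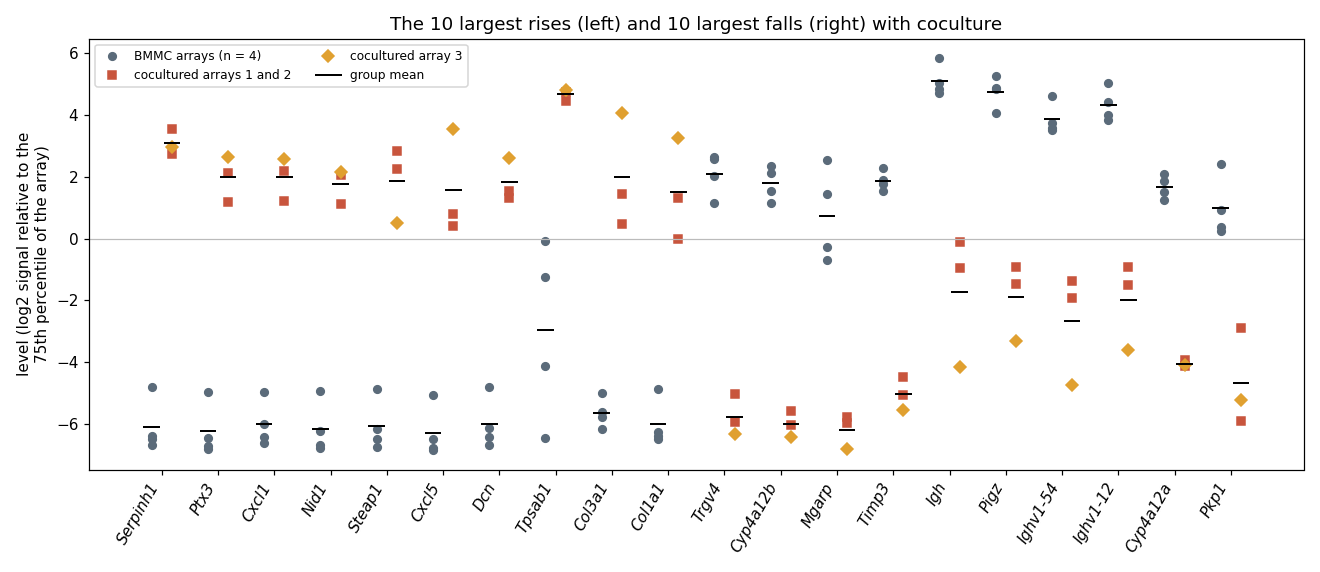
Levels (log2 signal relative to the 75th percentile of the array) of the 10 largest rises and 10 largest falls, with a point for each of the 4 knockout BMMC arrays and 3 knockout cocultured arrays and a line at each group mean. No gene has overlapping groups, and Serpinh1 is between 2.74 and 3.55 on the 3 cocultured arrays.

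Of 17 mast cell protease genes measured, 6 rose and none fell (35.3% against 14.3% of all genes), with a median change of 1.50, and the count was 6 without cocultured array 3 as well. Tpsab1, which encodes mast cell tryptase mMCP-7 (chr17:25480640-25480699, mm9), was low and uneven in BMMCs at -4.13, -0.07, -1.23 and -6.45. It was even after coculture at 4.76, 4.47 and 4.81, a change of 7.65 (SE 1.09, adjusted p = 0.000892). The reading of -6.45 was below the dimmest probe called well above background on BMMC array 4 (-4.53). The size of the change is therefore not exact, and part of the unevenness lies below background. Tpsb2, the gene of tryptase mMCP-6, was already high in BMMCs (5.29, 5.75, 4.58 and 4.46) and rose by 1.96 (SE 0.38) to 7.57, 7.10 and 6.28. The other 4 were Mcpt8, a protease gene typical of basophils, which rose by 3.64, the granzyme gene Gzmb, by 1.48, and the chymase-related genes Mcpt2, by 4.00, and Mcpt9, whose mean went from -4.43 to -2.92. The call for Mcpt2 ended without cocultured array 3 (adjusted p = 0.0612) and without BMMC arrays 2 or 3 (0.0554 and 0.053), and that for Mcpt9 without cocultured array 1 (0.0586). With the authors' normalized values 2 of the 17 rose, where rises among all genes fell from 1246 to 196.

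Several proteases that mark connective tissue mast cells did not pass the test. Mcpt4, a chymase gene, read 2.61, 2.31, 1.07 and 0.22 in BMMCs and 2.97, 4.50 and 6.27 after coculture. These groups did not overlap, and the change of 3.03 had an SE of 1.33 (adjusted p = 0.15, or 0.323 without cocultured array 3). The related Cma2 spanned 1.08 to 4.34 after coculture, with a change of 3.51 (adjusted p = 0.0867). Mcpt1, a mucosal chymase gene, was not well above background on any BMMC array and read -4.76, -3.52 and 3.41 after coculture (adjusted p = 0.217). Cocultured array 3 read highest for these 3 genes and lowest for the chymase gene Cma1 (9.32, 9.23 and 8.37) and for Mcpt9 (-2.42, -2.75 and -3.61). Leaving out wild-type cocultured array 3, which shares the estimate of the spread, brought Mcpt4 to an adjusted p of 0.0232, Cma2 to 0.0131 and Mcpt1 to 0.0426. Cma1 (change 0.37, adjusted p = 0.436) and Cpa3, the mast cell carboxypeptidase (0.34, adjusted p = 0.442), were high in both groups, at 7.61 or above on every array, and their groups overlapped.

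Among 12 genes of histamine and serotonin metabolism, 1 rose (8.3% against 14.3% of all genes). This was Hdc, the histidine decarboxylase that makes histamine (chr2:126419516-126419575, mm9), with 2.25, 0.74, 1.17 and 2.46 in BMMCs against 6.14, 4.85 and 5.18 after coculture. Every cocultured array was above every BMMC array, and the change was 3.74 (SE 0.50, adjusted p = 0.000571). Ddc, which decarboxylates aromatic amino acids, read 6.32 and 6.50 on cocultured arrays 1 and 2 but 3.71 on array 3, within the BMMC range of 3.26 to 4.12, and passed without array 3 (adjusted p = 0.0383). Of 28 genes that build heparin and chondroitin sulfate chains, Hs6st1, a heparan sulfate sulfotransferase, rose by 0.94 and Chst12, a chondroitin sulfotransferase, fell from a mean of 1.33 to 0.33, a share of 7.1% against 14.3% of all genes. Both calls ended when single arrays were left out, Hs6st1 without cocultured array 1 (adjusted p = 0.0849) and Chst12 without cocultured array 3 (0.1). Ndst2, whose product adds sulfate to heparin, read 5.04, 5.27, 4.48 and 4.70 before and 3.64, 4.15 and 4.96 after coculture (change -0.62, adjusted p = 0.497).

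**Figure D2:**
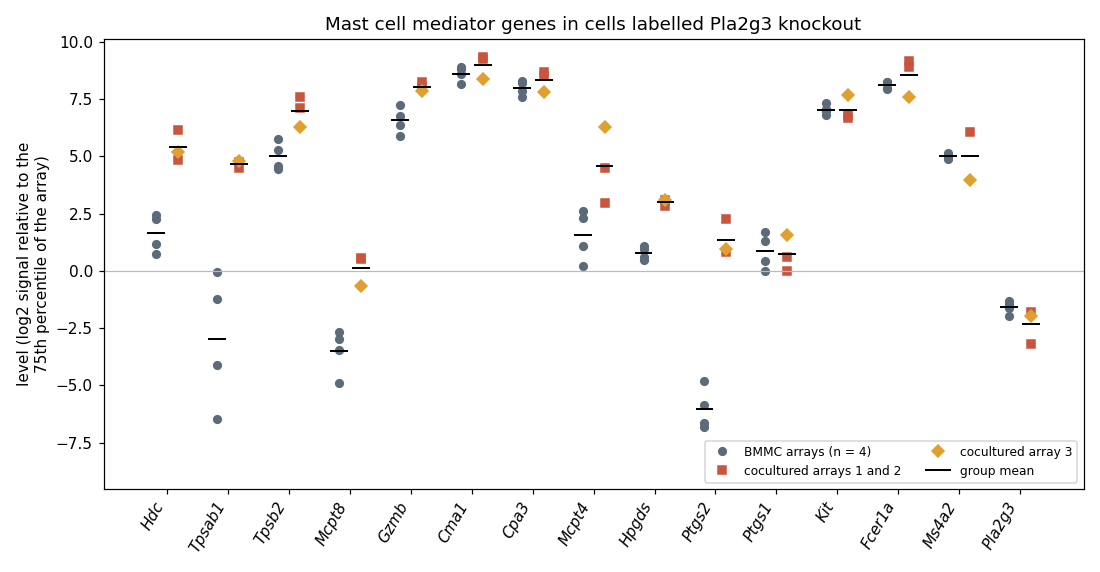
Levels (log2 signal relative to the 75th percentile of the array) of mast cell mediator, receptor and enzyme genes, with circles for the 4 knockout BMMC arrays, squares for cocultured arrays 1 and 2, diamonds for cocultured array 3 and a line at each group mean. Hdc, Tpsab1, Tpsb2, Hpgds and Ptgs2 are higher on all 3 cocultured arrays, whereas Kit and Cpa3 overlap.

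Genes of prostanoid synthesis and sensing changed in 6 of 14 cases (42.9% against 14.3% of all genes), with 4 rises and 2 falls. Hpgds, the hematopoietic prostaglandin D2 synthase, rose by 2.23 (SE 0.26, adjusted p = 0.000219), from 0.95, 1.08, 0.46 and 0.62 to 3.10, 2.82 and 3.10. The inducible cyclooxygenase gene Ptgs2 was not well above background on any BMMC array and read 2.26, 0.84 and 0.96 after coculture, at least 40.4-fold higher (adjusted p = 0.000271), although the authors' normalized values gave 0.0636. Ptges, the inducible prostaglandin E synthase, rose at least 7.44-fold, a call that also ended with those values. The constitutive cyclooxygenase gene Ptgs1 overlapped between groups (change -0.14, adjusted p = 0.908). Among receptors, the prostacyclin receptor gene Ptgir rose by 2.06, a call that ended without cocultured array 1 (adjusted p = 0.0585). Ptger4, a receptor for prostaglandin E2, fell by 2.32 (SE 0.44, adjusted p = 0.00455), from 0.76, 0.30, 0.69 and 1.36 to -1.47, -2.21 and -0.96, and its sister receptor gene Ptger3 fell by 1.59. Ptger3 did not pass without cocultured array 3 (0.081), and without any 1 BMMC array or cocultured array 1 a single prostanoid gene fell. No gene was measured for the D2 receptor Ptgdr or the synthase Ptgds.

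In the leukotriene pathway 3 of 11 genes fell and 1 rose (36.4% against 14.3% of all genes), and without cocultured array 3, where 19.6% of all genes passed, the split was 2 falls and 3 rises. The 2 leukotriene B4 receptor genes fell, Ltb4r1 by 3.45 (SE 0.83, adjusted p = 0.0167) and Ltb4r2 at least 6.27-fold, since it was below background on every cocultured array. Cysltr2, a receptor for cysteinyl leukotrienes, fell by 1.90, which did not pass without cocultured array 3 (0.11). Abcc1, an exporter of leukotriene C4, rose by 1.65 (SE 0.28) from 3.42, 3.26, 3.28 and 3.67 to 5.32, 4.91 and 4.94. With the authors' normalized values none of the 4 calls was made, but their floor prevents calls for genes that are low in both groups. Ltc4s, the leukotriene C4 synthase, read 1.68, 1.68, 1.26 and 1.61 in BMMCs and 1.74, 2.14 and -0.65 after coculture, so that array 3 alone lay below the BMMC range. Of 13 phospholipase A2 genes (15.4% called, near the 14.3% of all genes), Pnpla8, a calcium-independent enzyme of mitochondria and peroxisomes, rose by 0.99. The lysosomal Pla2g15 fell by 2.04. Neither passed without cocultured array 3 (adjusted p = 0.0512 and 0.117), nor without BMMC arrays 1, 2 or 3.

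The receptors that define mast cells kept overlapping levels. Kit, the SCF receptor, was at 6.95, 7.05, 6.82 and 7.32 before and 6.66, 6.78 and 7.68 after coculture (change 0.00, SE 0.30). Fcer1a, the alpha chain of the IgE receptor, was at 7.97, 8.26, 8.24 and 7.91 before and 9.17, 8.91 and 7.59 after. Cocultured arrays 1 and 2 were thus above all BMMC arrays and array 3 below all of them, with an adjusted p of 0.391, or 0.0194 without array 3. The beta chain gene Ms4a2 had no usable spot on cocultured array 2 and read 6.06 and 3.96 on the others, against 4.88 to 5.14 in BMMCs.

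Among 33 genes of IgE receptor and Kit signalling, 5 rose and 1 fell (18.2%, near the 14.3% of all genes), and 9 rose without cocultured array 3, where 12.3% of all genes did. Pik3cd, the delta catalytic subunit of phosphoinositide 3-kinase, fell by 2.35 (SE 0.28), from between 4.78 and 5.71 to 3.27, 3.10 and 2.59. Spred1, an inhibitor of Ras signalling, rose by 1.15 and the Src family kinase gene Fyn by 2.08. The count of rises was 3 without BMMC arrays 1, 2 or 4 or without cocultured array 1, where rises among all genes fell from 1246 to 716, 735, 895 and 534. With the authors' normalized values the calls for Spred1 and Fyn ended. The mast cell surface receptor list had 4 rises and 3 falls among 37 genes (18.9%, near the 14.3% of all genes), and 2 rises without any of the same 4 arrays. Il1r1, the signalling receptor for interleukin 1, rose at least 27.4-fold from below background to 0.30, 0.01 and 2.07. Cd33, an inhibitory sialic acid-binding lectin, rose by 1.67 (SE 0.28). The fractalkine receptor gene Cx3cr1 fell by 3.96 (SE 0.72), from 2.56, 1.95, 1.95 and 3.05 to -2.54, -0.56 and -1.66, and Il2ra, the interleukin 2 receptor alpha chain, at least 4.27-fold. The calls for Il1r1 and Il2ra ended with the authors' normalized values.

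Of 25 transcription factor genes of the mast cell lineage, 3 rose and 5 fell (32% against 14.3% of all genes), with a median change of -0.57. Gata1, a factor of the erythroid, megakaryocyte and mast cell lineages, fell by 2.04 (SE 0.24, adjusted p = 0.000228), from 3.37, 3.40, 2.93 and 3.27 to 1.20, 1.61 and 0.80. Its partners Lyl1 (by 2.49) and Tal1 (by 0.99) fell as well, as did Stat5b (by 1.12), which signals below the interleukin 3 receptor, and Egr1 (by 2.21). Only 2 genes fell without BMMC arrays 1, 2 or 3 and only Gata1 without cocultured array 1. Falls among all genes went from 1040 to 614, 593, 710 and 535 in these settings. Cebpb, a factor of myeloid and inflammatory gene expression, rose by 2.35 (SE 0.35) to 6.35, 6.07 and 5.33, Klf4 by 4.83 and Tfe3 by 1.11. The call for Tfe3 ended with the mean over its probes (limma adjusted p = 0.129). It also ended with normexp background correction (0.0836) and with the authors' normalized values (0.0561). The megakaryocyte marker list gave 2 falls in 11 (18.2%, near the 14.3% of all genes), the platelet glycoprotein gene Gp1ba by 1.28 and the transcription factor gene Nfe2 by 2.26. The call for Nfe2 ended without cocultured array 1 (adjusted p = 0.053).

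Cytokine and chemokine genes had 11 rises and 1 fall among 31 measured (38.7% against 14.3% of all genes). The median change was 2.04, or 1.47 with genes below background at their bound. Of the 31, 13 were above background on no BMMC array. The filter on dim probes kept these only through cocultured or wild-type arrays, so the share follows in part from it. Il33, an alarmin that acts on mast cells, rose at least 26.7-fold (adjusted p = 8.38e-06), from below background to 0.24, 1.47 and 0.56. Tnf, stored and released by mast cells, rose by 4.68 (SE 0.56, adjusted p = 0.000293), from -0.56, -0.31, 0.13 and -0.18 to 4.48, 5.64 and 3.23. Cxcl5 rose at least 47.2-fold, to 0.39, 0.78 and 3.56, and the interferon-induced chemokine gene Cxcl10 at least 39.4-fold, to -0.31, 0.69 and 3.56. Ccl7, a monocyte attractant, rose by 4.38 to 6.97, 6.57 and 3.01, a call that ended without cocultured arrays 1 or 2 (adjusted p = 0.0646 and 0.0506). Cxcl5 and Cxcl10 were highest and Ccl7 lowest on cocultured array 3. The fall was in Osm, the oncostatin M gene, by 2.80, and it ended without any 1 BMMC array and without cocultured arrays 1 or 3. Without cocultured array 3 there were 14 rises and no falls, and without cocultured array 2 there were 7 rises. Rises among all genes went from 1246 to 1970 and 733 in these settings. With the authors' normalized values, where 196 of all genes rose, 3 rose here, and the calls for Il33, Cxcl10 and Ccl7 ended.

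Another set of cytokine genes was high on cocultured arrays 1 and 2 but not on array 3. Il6 read 4.17, 4.72, 4.61 and 4.05 in BMMCs and 7.43, 7.58 and 3.53 after coculture. Ccl3 read 7.10, 6.86 and 3.25 after coculture, and Ccl4 read 7.36, 7.82 and 2.71, against BMMC ranges of 1.77 to 4.09 and 3.04 to 5.03. Ccl2 was high throughout, at 6.82 to 7.84 before and 9.02, 8.78 and 7.30 after. Array 3 thus lay within or below the BMMC range for all 4 genes. With all 3 arrays none passed (adjusted p = 0.231, 0.0835, 0.32 and 0.109), and without array 3 all did (0.0184, 0.0103, 0.0326 and 0.00502).

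Of 32 immediate early genes and genes of NF-kB feedback, 8 rose and 1 fell (28.1% against 14.3% of all genes), and 11 rose and none fell without cocultured array 3, where 12.3% of all genes rose. Relb, an NF-kB subunit, rose by 3.11 (SE 0.32, adjusted p = 8.98e-05), from 0.20, 0.49, 0.68 and 0.36 to 3.90, 3.31 and 3.43. Nfkbia, the inhibitor that NF-kB itself induces, rose by 3.64 (SE 0.57), from 2.54, 2.26, 2.56 and 1.96 to 6.19, 6.96 and 4.76. Nfkbiz, another inducible regulator of NF-kB, rose by 3.68 from 2 usable cocultured arrays, and Fosl1, an AP-1 subunit, rose by 5.62. Fosl1 was above background on only 1 BMMC array, so the size of its change is not exact. The gene that fell, Egr1, lost its call without cocultured arrays 1 or 3, among others, and Fosl1 lost it with the authors' normalized values. NF-kB is a family of factors that bind a short shared site, and the stretches of the promoters that hold 1 exact form of it, in capitals, are shown here because each of their genes rose. All promoter sequences are from RefSeq on GRCm38.p6, each motif was searched on both strands over 250 bases before the start, capitals mark it, and the motifs were chosen after the values were seen. This form or its reverse complement occurred before 0.0852% of 32851 starts. It was found in 1 of 25 list members with a promoter sequence and in 2 of 22 cytokine and chemokine genes. Of those without it, 4 of 24 list members and 6 of 20 cytokine and chemokine genes rose. The 3 promoters that hold it are:
Cxcl1, chr5:90891144-90891213, plus strand: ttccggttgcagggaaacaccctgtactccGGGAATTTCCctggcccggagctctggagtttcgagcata
Cxcl2, chr5:90903772-90903841, plus strand: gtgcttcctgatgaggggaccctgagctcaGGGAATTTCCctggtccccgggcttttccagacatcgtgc
Nfkbia, chr12:55492648-55492706, minus strand: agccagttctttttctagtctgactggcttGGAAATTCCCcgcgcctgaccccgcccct

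Cxcl2, a close relative of Cxcl1 on the same chromosome, rose at least 6.40-fold, from below background to 0.28, 0.02 and -4.22. Its call was near the threshold (adjusted p = 0.0457) and ended when any 1 of several arrays was left out, for example 0.0613 without wild-type BMMC array 1. Array 3 was the lowest for Cxcl2 and the highest for Cxcl1.

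Genes of endoplasmic reticulum stress and of the amino acid response driven by ATF4 had 11 rises and no falls among 26 (42.3% against 14.3% of all genes). The median change was 1.17, and 9 rose without cocultured array 3, where 12.3% of all genes did. The count of rises was 6 without BMMC arrays 1, 2 or 4, 4 without cocultured array 1 and 3 with the authors' normalized values, where Atf4 and Slc7a11 did not pass. Rises among all genes fell from 1246 to 716, 735, 895, 534 and 196 in these settings. Herpud1, a membrane protein gene of degradation at the endoplasmic reticulum, rose by 1.82 (SE 0.28, adjusted p = 0.00152), from 4.32, 4.87, 4.84 and 4.16 to 6.84, 6.47 and 5.81. Chac1, whose product breaks down glutathione, rose by 3.61 (SE 0.66), from 0.35, 1.20, 1.88 and 2.60 to 5.73, 5.79 and 3.84. Atf4 itself rose by 1.65 to 4.53, 4.54 and 4.56, nearly the same level on all 3 arrays. Slc7a11, the cystine transporter, rose at least 26.6-fold to 1.21, -0.21 and 1.24. Atf3, a stress-induced factor, rose by 5.75 to 3.78 and 2.38 on its 2 usable cocultured arrays, and Asns, which makes asparagine, by 2.48. The calls for Atf3 and Asns ended without cocultured array 1 (adjusted p = 0.0998 and 0.0572). ATF4 binds a composite element with C/EBP factors, TGATGCAA, which occurred before 0.791% of all starts. Of 25 list members with a promoter sequence 4 held it, and they are shown because all 4 rose, whereas 6 of the other 21 rose:
Herpud1, chr8:94386287-94386354, plus strand: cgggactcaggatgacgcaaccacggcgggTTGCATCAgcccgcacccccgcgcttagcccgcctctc
Chac1, chr2:119351019-119351086, plus strand: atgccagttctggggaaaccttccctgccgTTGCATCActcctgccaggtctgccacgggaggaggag
Slc7a11, chr3:50443623-50443690, minus strand: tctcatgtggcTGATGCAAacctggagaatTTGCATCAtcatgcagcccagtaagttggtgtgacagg
Atf3, chr1:191183406-191183473, minus strand: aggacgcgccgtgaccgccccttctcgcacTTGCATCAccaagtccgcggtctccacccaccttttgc

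The same list holds chaperone genes. The endoplasmic reticulum stress element, CCAAT and CCACG with 9 bases between them, occurred before 0.113% of starts and in 5 list members, none of which passed the test with all arrays. Among the other 20 members 10 rose. The stretches of the 5 members are given beside the ATF4 elements:
Dnajc3, chr14:118937797-118937875, plus strand: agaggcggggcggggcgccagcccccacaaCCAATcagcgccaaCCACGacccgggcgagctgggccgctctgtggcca
Hspa5, chr2:34771995-34772073, plus strand: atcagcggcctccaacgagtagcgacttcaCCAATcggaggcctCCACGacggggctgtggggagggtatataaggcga
Hsp90b1, chr10:86705503-86705581, minus strand: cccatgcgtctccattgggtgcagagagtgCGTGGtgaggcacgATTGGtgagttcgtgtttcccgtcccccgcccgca
Pdia6, chr12:17266461-17266539, plus strand: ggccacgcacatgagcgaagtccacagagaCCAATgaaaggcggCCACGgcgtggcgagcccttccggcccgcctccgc
Creld2, chr15:88819490-88819568, plus strand: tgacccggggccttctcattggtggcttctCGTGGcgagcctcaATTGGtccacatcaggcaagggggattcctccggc

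Hspa5, the chaperone BiP, read 5.47, 5.78, 5.93 and 5.86 in BMMCs and 7.20, 6.92 and 5.55 after coculture, a change of 0.80 (adjusted p = 0.191, or 0.0186 without cocultured array 3). The changes of Dnajc3, Hsp90b1, Pdia6 and Creld2 were 0.89, -0.22, 0.24 and 0.12, with adjusted p from 0.184 to 0.893. Without the slide with the later scan date, where 4653 genes passed in all, Hspa5 (adjusted p = 0.00275), Dnajc3 (0.0224), Creld2 (0.031) and Pdia6 (0.0377) rose. Whether the chaperone and ATF4 genes differed in their change was not tested. A match of letters is a description of these windows and does not show binding.

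Glycolysis and hypoxia-induced genes fell in 10 of 34 cases and rose in 1 (32.4% against 14.3% of all genes), with a median change of -0.56. Aldoc, an aldolase, fell by 3.03 (SE 0.42, adjusted p = 0.000756), from 2.87, 4.34, 4.10 and 3.37 to 1.34, 0.45 and 0.13. Pdk1, which keeps pyruvate out of mitochondria, fell by 5.02 (SE 0.74), from 1.48, 3.13, 3.18 and 1.72 to -1.62, -1.93 and -4.36. Pfkl, a phosphofructokinase, fell by 3.08 and Bnip3, a mitophagy receptor, by 2.90. Ndrg1, another hypoxia-induced gene, went the other way and rose by 2.50 (SE 0.40), from 4.19, 4.76, 5.19 and 3.98 to 7.43, 6.57 and 7.10. The count of falls was 6 without cocultured array 3 and 6 without BMMC arrays 2 or 3. Falls among all genes numbered 1173, 593 and 710 there, against 1040 with all arrays. The core of the hypoxia response element, ACGTG, was common, before 16.6% of all starts. It was found in 19 of 31 list members with a sequence, of which 5 fell, and 5 of the 12 members without it fell. The stretches of Egln3, an oxygen sensor gene that fell by 3.43, and of Bnip3, where the core lies in CACGTG, are printed as examples:
Egln3, chr12:54204069-54204124, minus strand: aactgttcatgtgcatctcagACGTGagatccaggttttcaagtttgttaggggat
Bnip3, chr7:138909579-138909643, minus strand: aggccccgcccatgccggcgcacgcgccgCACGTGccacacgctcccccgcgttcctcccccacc

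The call for Egln3 ended without cocultured array 1 (adjusted p = 0.0714), whereas that for Bnip3 was made under every alternative.

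Lysosome and exocytosis genes had 9 rises and 2 falls among 34 (32.4% against 14.3% of all genes). Without cocultured array 3 they had 13 rises and 1 fall, where 12.3% of all genes rose. Stx11, a SNARE protein of granule secretion, rose by 3.58 (SE 0.39, adjusted p = 0.000138), from -0.23, 0.29, -0.46 and -0.74 to 3.92, 3.39 and 2.57. Atp6v1h, a subunit of the proton pump that acidifies granules, rose by 1.90, and the cathepsin genes Ctsb and Ctsd rose by 1.60 and 1.21. The cathepsin calls each ended under 9 alternatives, among them those without cocultured array 1 (adjusted p = 0.111 and 0.117) or 2 and with median scaling (0.09 and 0.11). Rab3a, a GTPase of regulated exocytosis, fell by 2.92 (SE 0.55), from 1.32, 0.81, 0.73 and 0.11 to -2.72, -1.15 and -2.67. The count of rises was 3 without BMMC array 1, 5 without BMMC arrays 2 or 3, and 2 and 4 without cocultured arrays 1 and 2. Rises among all genes fell from 1246 to 716, 735, 813, 534 and 733 in these settings. With the authors' normalized values 2 rose, without Atp6v1h, where 196 of all genes rose.

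BCL2 family genes changed in 7 of 15 cases (46.7% against 14.3% of all genes), 4 up and 3 down. Pmaip1, the death-promoting Noxa, rose by 3.05 (SE 0.43), from 0.15, 1.01, 0.91 and 0.83 to 4.38, 3.50 and 3.43. Bmf, another death-promoting member, fell by 3.92 (SE 0.56), from 0.88, 1.92, 0.97 and 0.81 to -2.39, -4.15 and -1.78. The survival gene Bcl2 fell by 2.39, from 5.09, 4.95, 4.97 and 5.16 to 3.46, 3.16 and 1.34, lowest on cocultured array 3. Mcl1, another survival gene, rose by 1.24, a call that ended without cocultured arrays 1 or 2 (adjusted p = 0.0929 and 0.0947), without BMMC arrays 1, 2 or 3 and with median scaling (0.132), among others. The count of rises was 2 without BMMC arrays 1, 2 or 3 or cocultured array 2, and 1 without cocultured array 1. Rises among all genes fell from 1246 to 716, 735, 813, 733 and 534 in these settings.

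Cholesterol synthesis and cell cycle genes had fewer calls than the 14.3% of all genes. Of 28 genes of cholesterol synthesis, Cyp51 rose by 1.97 (SE 0.37) and Hsd17b7 by 1.84, a share of 7.1%. Without cocultured array 3, 7 rose (12.3% of all genes did), among them Ebp, an isomerase of the pathway, at 6.34, 6.30 and 4.31 after coculture against 4.71 to 5.08 before. Hsd17b7 did not pass without any of 5 arrays, for example at 0.0982 without cocultured array 1, and Cyp51 did not with the authors' normalized values. Of 40 cell cycle genes, the cyclin D1 gene Ccnd1 rose by 4.21, Cenpa rose by 0.98 and Kif23, a kinesin of cytokinesis, fell by 1.48 (SE 0.31), a share of 7.5%. Without cocultured array 3, 7 rose and 1 fell. Pcna, the sliding clamp of DNA replication, read 7.17, 7.17 and 4.94 after coculture against 5.16 to 5.50 before, and passed without array 3 (adjusted p = 0.00181). Ccnd1 was above background on only 1 BMMC array, so the size of its change is not exact. Its call ended with normexp background correction (limma adjusted p = 0.0719) and with the authors' normalized values (0.903). Cenpa lost its call when most single arrays were left out. Cell cycle rises numbered 1 without BMMC arrays 1, 3 or 4, and 4 without wild-type cocultured array 3. Rises among all genes went from 1246 to 716, 813, 895 and 1688 in these settings. Among 26 interferon response genes 11.5% were called, against 14.3% of all genes. Gbp3, a guanylate-binding protein gene, rose by 4.38 (SE 0.67), and Usp18, a brake on interferon signalling, fell by 2.39 (SE 0.44). Stat2, a signal transducer of interferon, fell by 1.16, which did not pass without BMMC arrays 1 or 2 or cocultured arrays 1 or 2.

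**Figure D3:**
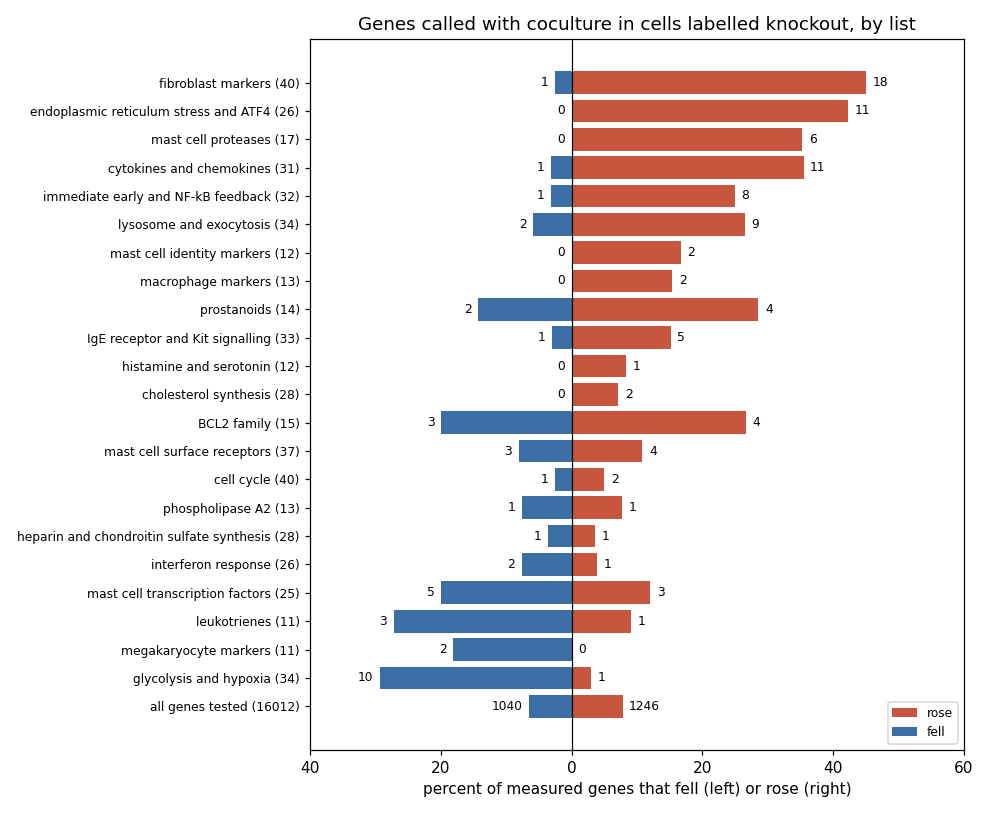
Percent of measured genes that rose (right) or fell (left) with coculture at an adjusted p under 0.05, for each list with 10 or more measured genes and for all 16012 genes, with the counts beside the bars and the number measured after each name. Fibroblast markers (18 of 40) and the ATF4 list (11 of 26) have the highest shares of rises.

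Markers of fibroblasts, the cells of the monolayer, rose with the coculture. Of 40 measured, 18 rose and 1 fell (47.5% against 14.3% of all genes), and 15 rose without cocultured array 3, where 12.3% of all genes did. The median change was 2.73, or 1.06 with genes below background at their bound. Of these 40 genes, 22 were above background on no BMMC array, and 8 of them were above background on every cocultured array. The filter on dim probes kept these 22 only through cocultured or wild-type arrays. Markers dim throughout were dropped, so the share of rises and the median change follow in part from the filter. The summed level of the 40 was 6.73 to 7.58 on the BMMC arrays and 8.44, 8.36 and 8.05 on cocultured arrays 1 to 3. Such a sum of unlogged signals follows its brightest members. Col1a1 and Col3a1, the main fibrillar collagens, rose at least 45.2-fold and 62.9-fold, to -0.01, 1.31 and 3.25 and to 0.47, 1.44 and 4.07. Dcn, a collagen-binding proteoglycan, rose at least 55.9-fold, to 1.33, 1.52 and 2.61. The metalloproteinase inhibitor gene Timp1 rose by 4.47 and Cav1, a caveolar coat gene, by 6.52, while Timp3, on the same list, fell. Col1a1, Col1a2, Col3a1, Col5a1, Col5a2 and Col6a1 were each highest on cocultured array 3 and lowest on array 1. In bulk RNA, fewer cells of a type and less RNA per cell cannot be told apart, so these values do not show how many fibroblasts were present. The part of fibroblast RNA in rises of other genes with no signal in BMMCs, such as Ptx3, Cxcl1, Cxcl5, Il33, Il1r1 and Ptgs2, was not tested. With normexp background correction or the authors' normalized values 5 of the 40 rose, where rises among all genes fell from 1246 to 282 and 196.

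Markers of mast cells and of other blood cells were counted in the same way. The mast cell identity list had 2 rises, Hdc and Tpsb2, and no falls among 12 (16.7% against 14.3% of all genes). Its summed level was 10.64 to 11.07 before coculture and 11.56, 11.28 and 10.66 on cocultured arrays 1 to 3. Of 13 macrophage markers, Cd68 rose by 2.95 and Cd14 by 2.51 (15.4% against 14.3% of all genes). The median change of the 13 was -0.41, or 0.33 with genes below background at their bound. Their summed level was 2.83 to 4.08 before and 2.65 to 3.36 after. The calls for Cd68 and Cd14 both ended without cocultured array 1 (adjusted p = 0.0978 and 0.0662) and without cocultured array 2. The 5 basophil markers gave 2 rises (40%), Mcpt8 and Gzmb. The 8 markers of dendritic cells and MHC class II gave 1 fall (12.5%), H2-Ab1 by 1.47, and 6 lymphocyte markers gave 1 rise (16.7%), Ncr1. The call for H2-Ab1 ended without cocultured array 3, among others (0.0874). No neutrophil (4), eosinophil (2) or erythroid (6) marker passed. The neutrophil granule genes Mmp8 and Mmp9 had adjusted p of 0.411 and 0.368.

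The gene lists differed between single cocultured arrays in opposite ways. As the median difference from the mean of the BMMC arrays, cholesterol synthesis stood at 1.22 and 0.92 on cocultured arrays 1 and 2 and at -0.33 on array 3. Cell cycle genes stood at 0.57, 1.13 and -0.35, and immediate early genes at 1.03, 0.90 and -0.18. For these 3 lists the third array lay on the other side of 0, where the median of all genes on it was -0.02. The same held for mast cell identity (0.67, 0.49 and -0.32), histamine and serotonin (0.44, 0.49 and -0.14) and surface receptors (0.15, 0.12 and -0.17). By median, fibroblast markers ran the other way, lowest on array 1, at 2.51 on array 2 and at 4.13 on array 3. Their summed level had the opposite order, at 8.44, 8.36 and 8.05. That sum follows the brightest members and was already 6.73 to 7.58 on the BMMC arrays, so it does not describe the markers as a set. The median of glycolysis stood at -0.23, -0.50 and -1.34. The medians of proteases (1.48, 1.68 and 1.35) and of the ATF4 list (1.25, 0.87 and 1.01) were on the same side of 0 on all 3, although single members differed between arrays, such as Mcpt1, Mcpt4, Chac1 and Hspa5 above. These differences are described and carry no test, since 1 array stands against 2.

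**Figure D4:**
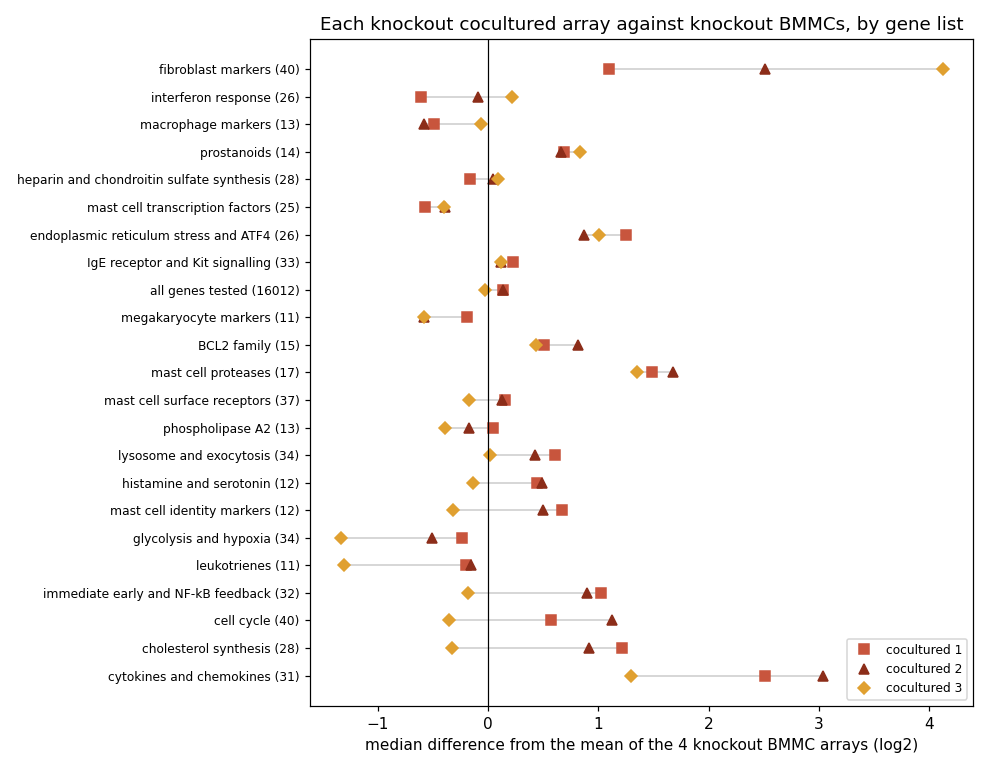
Median difference (log2) of each gene list from the mean of the 4 knockout BMMC arrays, shown for cocultured arrays 1, 2 and 3, with the number of genes after each list name. Cocultured array 3 lies below arrays 1 and 2 for cholesterol synthesis (-0.33) and above them for fibroblast markers (4.13).

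The wild-type cells were compared to see whether the change with coculture depended on the labelled genotype. In wild-type cells 2064 genes changed (12.9%), of which 1376 changed in the same direction in knockout cells and none in the opposite one. Across genes the 2 changes correlated at r = 0.858, where genes are not independent replicates and both fits share 1 estimate of the spread. Hdc changed by 3.74 in knockout and 3.24 in wild-type cells, Relb by 3.11 and 3.52, and Gata1 by -2.04 and -1.99. The differences for Serpinh1, 9.17 and 9.96, take levels below background as read and are not exact sizes. The test of the difference itself called no gene in limma (0%), with 131 genes at an unadjusted p under 0.05.

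This count rested on the slide with the later scan date. Without its 3 arrays, which left 3 knockout BMMC, 2 knockout cocultured, 3 wild-type BMMC and 3 wild-type cocultured arrays, 1762 genes differed (11.0%), 1261 with a higher and 501 with a lower change in knockout cells. Leaving out knockout cocultured array 3 alone, or wild-type cocultured array 3 alone, gave 0 calls in limma, with 2153 and 1432 genes at an unadjusted p under 0.05. Mcpt1 shows the pattern, with -4.76, -3.52 and 3.41 on knockout cocultured arrays 1 to 3 and 4.63, 3.78, -6.36 and 3.93 on wild-type cocultured arrays 1 to 4. The survival gene Bcl2 read 3.46, 3.16 and 1.34 against 1.33, 1.28, 3.43 and 1.19. In both genes array 3 of each genotype read like the other arrays of the opposite label. Without the slide, the difference in change was 2.05 (SE 0.24, adjusted p = 0.00701) for Bcl2 and -8.43 for Mcpt1. By list, 15 of 40 fibroblast markers differed, all with a lower change in knockout cells. Cholesterol synthesis (7 of 28), the ATF4 list (9 of 26) and the cell cycle (6 of 40) had genes that differed, each with a higher change in knockout cells, as had most of the genes that differed overall. Other lists went both ways, with 5 higher and 4 lower among 31 cytokine genes, 6 and 3 among 37 surface receptor genes and 4 and 1 among 11 leukotriene genes. The removed arrays differed in slide, scan date and the features given above at once, and these cannot be told apart. The removed cocultured arrays were those that lay with the opposite label along the second principal component. Those left were split by label there (-79.1 and -76.8 against 23.5, 66.6 and 56.7) and in Eif2s3y (-5.57 and -6.30 against 2.56 to 2.96). The counts without the slide thus rest on 2 knockout cocultured arrays, and labelled genotype and these features cannot be told apart.

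**Figure D5:**
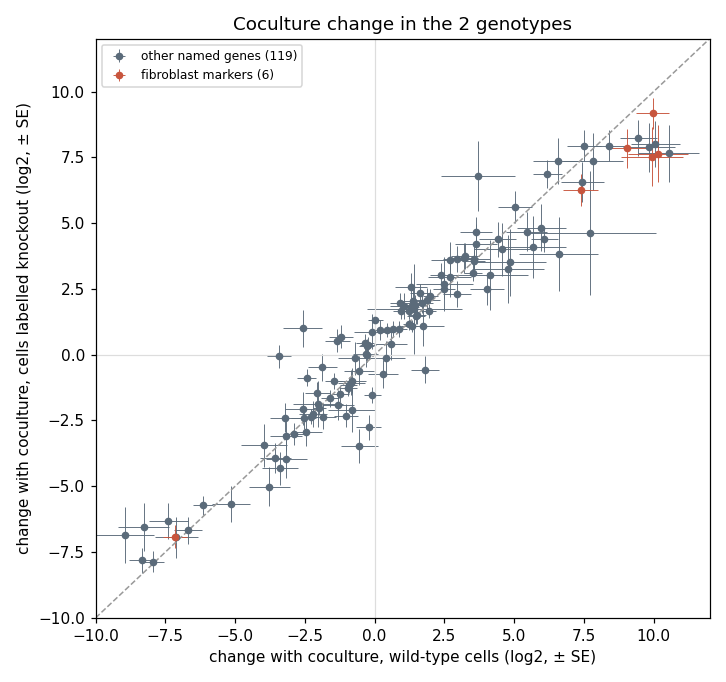
Change with coculture (log2, ± SE) of the named genes in wild-type cells (horizontal axis, 3 BMMC and 4 cocultured arrays) and in knockout cells (vertical axis, 4 BMMC and 3 cocultured arrays), with fibroblast markers in a second colour and a dashed line of equal change. Most genes lie along the line, and Serpinh1 is at 9.96 and 9.17. Levels below background enter as read, so changes of genes such as Serpinh1 are not exact sizes.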

How the data were processed

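RNA of 14 samples (450 ng each) was hybridised to 1-colour Agilent mouse arrays. The deposited scanner files give each spot's intensity, processed with Agilent Feature Extraction 9.5.1.1 per the submitters' processing notes and detrended per the file headers; probe positions are on mm9. The authors also deposited a table of the same intensity values and of normalized values that differ from them by a constant per array (from the values); 59% to 59.8% of the latter were below 0 on each array, and they served as an alternative, floored at 1 before log2.

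Outlier spots were removed. The log2 processed intensity was reduced by the 75th percentile of its array, and spots were averaged per probe. A probe was kept if at least 3 arrays called it well above background and each group had at least 2 values (23616 of 41174, with 32 dropped for missing values), and the brightest probe stood for a gene. Of 41174 probes, 24844 were named through accessions, 7855 through symbols and 8475 as in the files; 13041 of 16012 genes have a RefSeq symbol. All 4 groups were fitted in limma 3.58.1 (R 4.3.3, 10 residual degrees of freedom), with Benjamini-Hochberg adjustment over all 16012 genes and calls at 0.05. The fit was tested on simulated data. An "alternative" is another scaling, filter, block or set of arrays.

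Members and gene lists were chosen with earlier results of these data known. Named genes are Pla2g3, mediator genes, the 10 largest rises and falls, up to 4 passing members a list (or 2 where none passed) and genes of the authors' selected probes (only the probe list of that deposited table was used, since several of its headings hold the values of another array); other members were named after their values were seen. A gene that this rule names is not reported here.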

Additional observations from a re-analysis of the deposited data

Results flagged for a closer look

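Of 125 named genes, those with a value on all 4 knockout BMMC arrays were screened, which left out Hal, for example. In 6 of them 1 array lay far from the other 3, where the gap as a share of the range exceeded Dixon's 95% critical value. Chance gives about 1 in 20. BMMC array 2 stood apart for the death-promoting gene Bmf (0.855 of the range), at 1.92 against 0.81 to 0.97. BMMC array 4 stood apart for Chst12 (0.841), at 0.96 against 1.40 to 1.49, and for the mitochondrial enzyme gene Mdh2 (0.858), at 6.38 against 6.96 to 7.06. BMMC array 3 stood apart for Serpinh1 (0.839), Il33 (0.849) and Col1a1 (0.855), at -4.80, -4.77 and -4.86 against -6.26 or lower. These 3 genes were below background on all 4 arrays, and array 3 had the lowest share of probes above background, 42.6%.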

How the results depend on the processing

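The count of genes changed with coculture in knockout cells, 2286, was 912 with normexp background correction, 1412 with median scaling, 634 with the authors' normalized values, 1356 with no filter on dim probes and 4653 without slide 4. It ranged from 1069 to 3143 when 1 array was left out. Rises made up 54.5% of calls, but 30.9% with normexp background correction, where the median of all genes was 0.18, and 30.9% with the authors' values. Fitting the replicate number as a block gave 1231 calls, of which 1209 were shared. The deviations of same-numbered knockout arrays from their group means correlated at r = -0.033, 0.093 and 0.047. The knockout arrays numbered 1 shared a slide, as did those numbered 2. These correlations cannot show whether same-numbered arrays shared a culture or a mouse. The genotype difference had 0 calls in limma in the other settings, against 1762 without slide 4. Of 94 named genes called, 47 were called in every setting. With normexp background correction the changes of Bad (-1.66), Hal (-2.76) and Sytl1 (-3.48) turned to 0.0149, 0.27 and 0.13. Signal near background limits the folds of genes unseen in a group, and 3 cocultured arrays limit every call.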
